A study of Cyprinus carpio with 6 samples.

Results

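Long noncoding RNAs (lncRNAs) of 2000 bases or more were followed in gonad RNA of juvenile common carp (*Cyprinus carpio*). The members were chosen by 2 measured values of the deposited table, the feature length implied by count and RPKM (counts divided by feature length and by the clean reads of the library) and the mean abundance over all libraries. Of the 10770 features with an MSTRG ID, the names given to loci that StringTie assembled, 5443 were counted in 1 or more libraries and so have a length. Among these, 110 (2.02%) were at least 2000 bases long. The rule also set aside the 100 lncRNAs of highest mean CPM (counts relative to the sum over all features of a library), but 0 of those 100 were this long, so all 110 long lncRNAs with a count were kept. The 5327 lncRNAs without a count have no length here and may hold further long ones.

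The igf3-dsRNA group consisted of 3 libraries from fish injected intraperitoneally with *igf3* double-stranded RNA at 5 μg/g body weight, and the control group of 3 libraries from fish given H2O. All fish were of the FFRC No. 2 strain (FFRC in the labels) and 8 weeks post hatching, and gonads were taken 24 h after the injection. The labels list the genotype as igf3-knockdown or WT, but the treatment was a transient RNA interference and not a mutation, and the control fish received no dsRNA. The methods describe the sequenced RNA as coming from individual fish, and the labels give no sex.

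LncRNAs are transcripts longer than the conventional minimum that have no apparent potential to code for a protein. Those with known functions act, for example, by guiding chromatin-modifying complexes to genes, by holding proteins together as scaffolds or by binding microRNAs, and many vertebrate lncRNAs are expressed at low levels and in few tissues, the testis in particular. The ligand encoded by *igf3* is an insulin-like growth factor of the teleost gonad. None of the 60206 feature IDs was found in the gene table used here (0 matches), so the long lncRNAs are given by their assembly ID alone. The annotation that the study deposited elsewhere was not used here, and positions, sequences, gonad marker genes and *igf3* itself were not checked. By qRT-PCR, the study reported a significant fall of *igf3* mRNA after the dsRNA injection.

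Counts on features summed to between 2064856 and 3166031 per library. Control 2 had the most features with a count (24965, against 16530 to 21463 in the other 5 libraries), and its TMM normalisation factor was the lowest (0.79), the highest being that of igf3-dsRNA 3 (1.27). The libraries were made with a directional kit, but the counting program and its strand setting are not named. That setting bears on the counts of every feature. The study's lncRNAs include some that overlap protein-coding genes. The level of a long lncRNA that overlaps another feature on either strand is uncertain, as is that of one with a near-identical copy in the carp genome. Read pairs on no feature made up 91.4 to 92.6% of the pairs on 1, several or no feature. Every level, number detected and comparison of classes given here rests on the few pairs counted on a feature. The reason for the large loss was not tested.

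The median length of the long lncRNAs was 2393 bases. Most of them, 64, were shorter than 2500 bases, 25 measured from 2500 to under 3000 bases and 21 were 3000 bases or longer. The length limit cut through a continuous range of lengths. MSTRG.39728 (2010 bases, 32 counts in all libraries together) and MSTRG.11855 (2011 bases, 4 counts) were just inside it, and MSTRG.38672 (1989 bases, 2 counts) and MSTRG.1108 (1974 bases, 8 counts) just outside. At the other end, MSTRG.35528 was the longest with 5759 bases, MSTRG.28462 had 4834 bases and MSTRG.7653 had 4407 bases. These 3 were barely detected. MSTRG.35528 had 0, 3 and 0 counts in igf3-dsRNA 1, 2 and 3, against 0, 4 and 0 in control 1, 2 and 3. MSTRG.7653 had 1, 0 and 2 counts in the igf3-dsRNA libraries, against 0, 0 and 3 in the control libraries. The only count of MSTRG.28462 was in control 2. All 5 long lncRNAs of 4000 bases or more had between 1 and 7 counts in total.

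**Figure D1:**
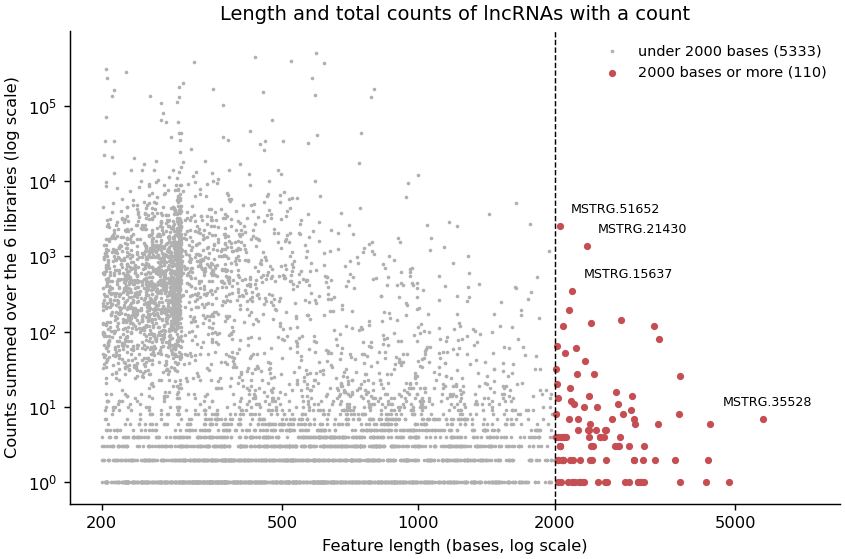
Feature length (x axis, bases, log scale) against the counts summed over the 6 libraries (y axis, log scale) for each lncRNA with a count, with long lncRNAs in red and the others in grey. The dashed line marks 2000 bases, and the long lncRNAs reach at most 2545 counts (MSTRG.51652).

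The long lncRNAs had few counts each, as did many features of the whole table. They held 5804 counts in all 6 libraries together, and their median was 4 counts per lncRNA. No more than 3 counts in total were found for 52 of the 110 (47.3%), of which 24 rested on a single count (21.8% of the 110). Over all features with a count, the median was 5 counts, 39.3% had no more than 3 and 17.8% had a single count. Another 40 had 4 to 19 counts and 18 had 20 or more. Only 8 (7.27%) exceeded 100 counts, against 13.3% of all features with a count. In 69 of the 110 (62.7%), no library had more than 3 counts, the level treated here as the floor of detection. Between a long lncRNA at 0 and one expressed below 3 counts per library, which corresponds to 0.948 CPM in the deepest library and 1.45 CPM in the shallowest, no distinction was detectable at this depth. This floor covers counting error only.

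Detection followed the same pattern. Of the 110 long lncRNAs, 41 had a count in a single library, 29 in 2 libraries, 14 in 3, 5 in 4, 7 in 5 and 14 in all 6. A single library held the counts of 37.3% of the long lncRNAs and of 30.4% of all features with a count. All 6 libraries had a count for 12.7% and 20.9%. The 41 found in a single library had at most 8 counts there, reached by MSTRG.31040 in igf3-dsRNA 2, and 24 of them had 1 count. The 14 found in all libraries were 2024 to 3780 bases long and included 3 of the 21 lncRNAs of 3000 bases or more, namely MSTRG.7383, MSTRG.51842 and MSTRG.49649.

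Set beside shorter lncRNAs, the class resembled those of 1000 to under 2000 bases more than those under 1000 bases. A count in all 6 libraries was found for 12.7% of the 110 long lncRNAs, 12.7% of the 685 lncRNAs of 1000 to under 2000 bases and 45.3% of the 4648 lncRNAs under 1000 bases. Median total counts were 4, 4 and 20 in the same order of classes, and 7.27, 6.57 and 40.3% of the features had more than 100 counts. Per length the contrast was wider. The median over features of the mean RPKM was 0.00239 in the long lncRNAs, 0.00438 in those of 1000 to under 2000 bases and 0.0710 in the shortest class. Protein-coding transcripts (CAFS IDs) of 2000 bases or more, the class closest in length, had a median of 0.00303 RPKM and 7 counts, and 22.1% of the 17056 with a count were found in every library. Features of a class are not replicates, so these differences are descriptions without a test.

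**Figure D2:**
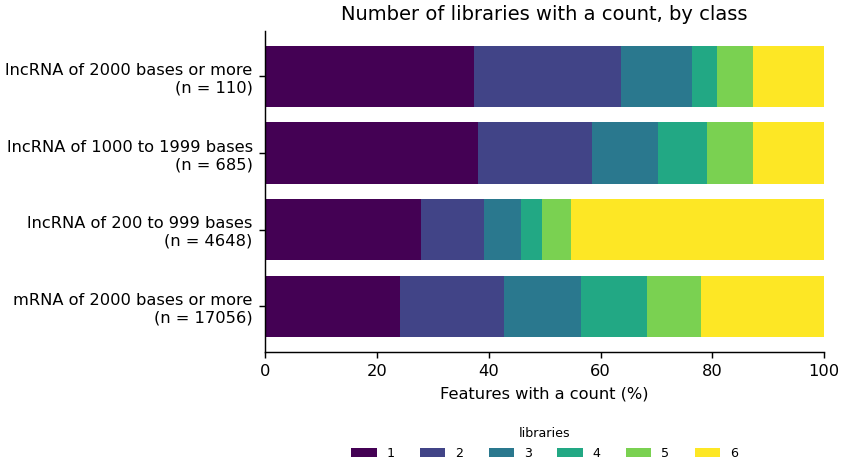
Percentage of features with a count (x axis) that had one in 1, 2, 3, 4, 5 or all 6 libraries, for lncRNAs of 3 length classes and for mRNAs of 2000 bases or more. The bars of the long lncRNAs and of those of 1000 to under 2000 bases both end with 12.7% of features found in every library, against 45.3% for the shortest lncRNAs.

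Across all 5443 lncRNAs with a count, longer features had fewer counts (Spearman correlation -0.41 with total counts and -0.60 with mean RPKM). Within the 110 long lncRNAs the corresponding values were -0.13 and -0.28. The points share their 6 libraries, RPKM contains the length as its divisor and a feature with a single count sets the lowest RPKM its length allows, so the correlations are given as descriptions. The median was 4 counts for the 64 long lncRNAs under 2500 bases and 3 counts for the 46 of 2500 bases or more.

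A pair of long lncRNAs, MSTRG.51652 (2050 bases) and MSTRG.21430 (2357 bases), held 67.8% of all counts on the class. Among the 5443 lncRNAs with a count they ranked 288th and 505th by mean CPM and 1247th and 1666th by mean RPKM. MSTRG.51652 had 560, 455 and 481 counts in igf3-dsRNA 1, 2 and 3, against 264, 458 and 327 in control 1, 2 and 3. On the RPKM scale the lowest igf3-dsRNA library lay barely above the highest control library, with 1.8093 in igf3-dsRNA 2 and 1.8081 in control 2. MSTRG.21430 had 215, 192 and 194 counts in the igf3-dsRNA libraries, against 247, 189 and 356 in the control libraries. Its RPKM was 0.967, 0.664 and 0.922 in the igf3-dsRNA libraries, against 1.05, 0.649 and 1.45 in the control libraries. Control 3 was the highest and control 2 the lowest of its 6 values. For MSTRG.51652, the library with the most counts held 22.0% of them, the smallest such share among the 18 members with 20 or more counts.

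The third by abundance, MSTRG.15637 (2188 bases), was already far lower, with 66, 29 and 59 counts in the igf3-dsRNA libraries, against 70, 88 and 34 in the control libraries. Its mean RPKM over the 6 libraries was 0.254, compared with 1.99 for MSTRG.51652 and 0.951 for MSTRG.21430. Below these, MSTRG.39677 (2151 bases), MSTRG.50450 (2795 bases) and MSTRG.35829 (2398 bases) had 193, 143 and 131 counts in total. The highest value of MSTRG.50450, the member of highest abundance among those over 2500 bases, was 37 counts, in igf3-dsRNA 3.

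In each library the class took a few hundredths of a percent of the counts on features. The share was 0.0466, 0.0299 and 0.0473% in igf3-dsRNA 1, 2 and 3, with a mean of 0.0413 ± 0.00986% (SD, n = 3), against 0.0300, 0.0346 and 0.0396% in control 1, 2 and 3, with a mean of 0.0347 ± 0.00480% (SD, n = 3). The 95% Wilson intervals, which cover counting error only, reached at most 0.00297 percentage points to either side. The groups overlapped, since igf3-dsRNA 2 was the lowest of the 6 libraries. Without MSTRG.51652 and MSTRG.21430 the share was 0.0121 ± 0.00277% in the igf3-dsRNA group and 0.0120 ± 0.00224% in the control group (SD, n = 3 each). In bulk gonad RNA, fewer cells of a type and less RNA per cell cannot be told apart, and the same holds for every level given here.

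The number of long lncRNAs with a count was 43, 47 and 50 in igf3-dsRNA 1, 2 and 3, against 36, 70 and 34 in control 1, 2 and 3. Both groups averaged 46.7, with an SD of 3.51 in the igf3-dsRNA group and 20.2 in the control group (n = 3 each). Control 2 stood apart, and 14 of the 41 members found in a single library were found there, against 1 to 8 in each of the other 5 libraries. Control 2 was also the deepest library. At the total count of the shallowest library, the expected number of long lncRNAs with a count was 41.5, 40.6 and 50 in igf3-dsRNA 1, 2 and 3, against 33.8, 61.0 and 32.2 in control 1, 2 and 3. Control 2 thus still had the most at an equal total of feature counts, a match that does not take the differing TMM factors into account. Its features with a count were more numerous in the whole table too, as given above, and the reason was not tested.

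**Figure D3:**
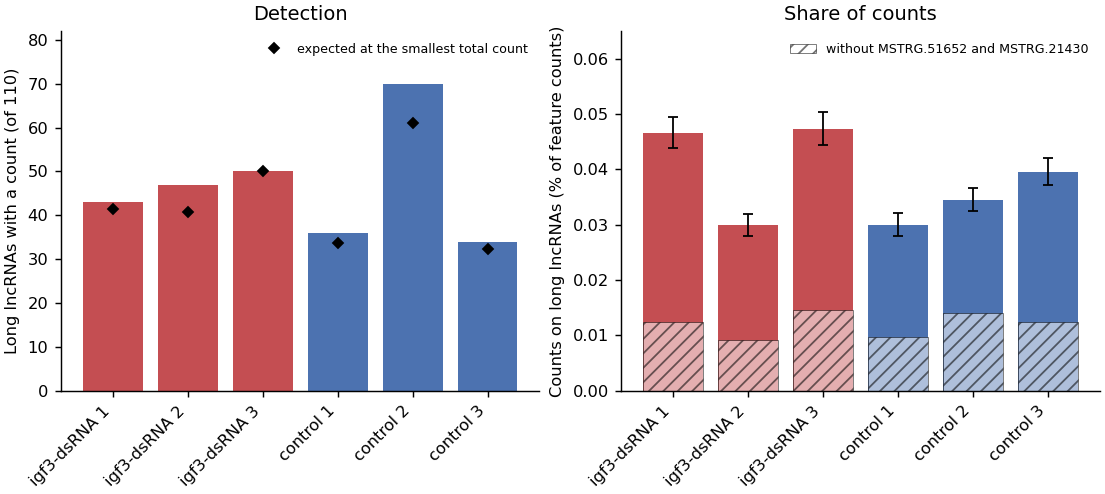
Left, number of long lncRNAs with a count in each library (bars; igf3-dsRNA red, control blue), with the number expected at the shallowest library's total as diamonds. Right, share of the feature counts on long lncRNAs with 95% Wilson intervals, the hatched part being the share without MSTRG.51652 and MSTRG.21430; the number is highest in control 2 (70), whereas the share is highest in igf3-dsRNA 3 (0.0473%).

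Among the 110, 25 (22.7%) had counts in igf3-dsRNA libraries only and 26 (23.6%) in control libraries only, and 59 had counts in both groups. Over all features with a count the shares were 18.6% and 19.3%. Of the 25, 21 were found in a single library, and 20 of the 26 were. None of the 25 was found in all 3 igf3-dsRNA libraries (0 of 25), and the largest of them, MSTRG.45081 (2475 bases), had 1, 0 and 9 counts there. In all 3 control libraries but no igf3-dsRNA library there were 2, with 4 counts each, MSTRG.39413 with 2, 1 and 1 and MSTRG.14637 with 1, 2 and 1 in control 1, 2 and 3. The largest on the control side, MSTRG.1886 (2013 bases), had 3, 5 and 0 counts in the control libraries. All but 4 of the 25 and all but 5 of the 26 had no more than 3 counts in total, and no fold change is given for either set.

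The comparison of igf3-dsRNA with control libraries asked whether the injection changed the level of any long lncRNA. Of the 110, 10 passed the filter on low counts of edgeR and were tested, and these 10 held 88.4% of the counts of the class. The other 100 had at most 61 counts each, with a median of 3, and were not tested. A call required an absolute log2 fold change above 1 and p below 0.05 in the quasi-likelihood test of edgeR, with Benjamini-Hochberg adjustment over all 5843 features tested. With adjusted p, 0 of the 10 were called, as were 0% of all features. With unadjusted p, 0 of the 10 were called as well, against 2.65% of all features tested, and the number was also 0 with edgeR's exact and likelihood ratio tests and with DESeq2. The adjusted p was 1.00 for each of the 10, and the smallest over all features was 0.152. The methods of the study name edgeR with the same limits, adjusted p included. Where the study reports changed lncRNAs and mRNAs, it writes the limit as P and names no adjustment. The changed lncRNAs and mRNAs that it checked by qRT-PCR went in the same direction. Its transcripts differ in number from the features tested here, and it states no filter on low counts for that test. When predicting lncRNAs, it removed transcripts under an FPKM (fragments relative to length and mapped reads) of 0.1. The RPKM used here is a different scale, on which the median of the long lncRNAs was 0.00239. The median log2 fold change of the 10 was -0.23, and that of all tested features was -0.02. The sign of the median was not stable. Over the members fitted in each alternative, it was 0.22 without control 2, 0.060 without control 3 and 0.027 without igf3-dsRNA 2. Over all 110, without a filter on low counts, it was 0.066. The members fitted were not the same 10 in every alternative, so these values differ in members as well as in fit.

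Of the 10, 3 had higher and 7 lower fitted levels in the igf3-dsRNA group, and none of these differences passed the test (0 of 10). MSTRG.51652 had the lowest p. Its level, in CPM normalised by TMM, was 284, 147 and 183 in igf3-dsRNA 1, 2 and 3, against 103, 182 and 116 in control 1, 2 and 3, or 205 ± 70.9 and 134 ± 42.6 (SD, n = 3 each). On this scale igf3-dsRNA 2 lay below control 2 while igf3-dsRNA 1 was above every control library. The log2 fold change was 0.62 (standard error 0.41, 95% interval -0.30 to 1.54, unadjusted p = 0.166 in edgeR's quasi-likelihood test), and it was 0.32 to 0.90 with each library left out in turn. The interval includes no change as well as a rise past the threshold of 1.

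MSTRG.51842, at 3400 bases the longest member tested, was the only one of the 10 whose groups did not overlap in normalised CPM. On the RPKM scale the groups of MSTRG.51652 did not overlap either, by a very small margin. MSTRG.51842 had 6, 9 and 11 counts in the igf3-dsRNA libraries, against 14, 27 and 13 in the control libraries. The normalised CPM was 3.04, 2.92 and 4.20 in igf3-dsRNA 1, 2 and 3, against 5.45, 10.7 and 4.61 in control 1, 2 and 3. The gap between igf3-dsRNA 3 and control 3 was thus small, and control 2 was the highest of the 6 libraries. Its log2 fold change was -1.02 (standard error 0.69, 95% interval -2.57 to 0.53, adjusted p = 1.00 from edgeR), and -0.57 without control 2. Among the 10, 1 lncRNA without overlap compares with 6.49% of all features tested.

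**Figure D4:**
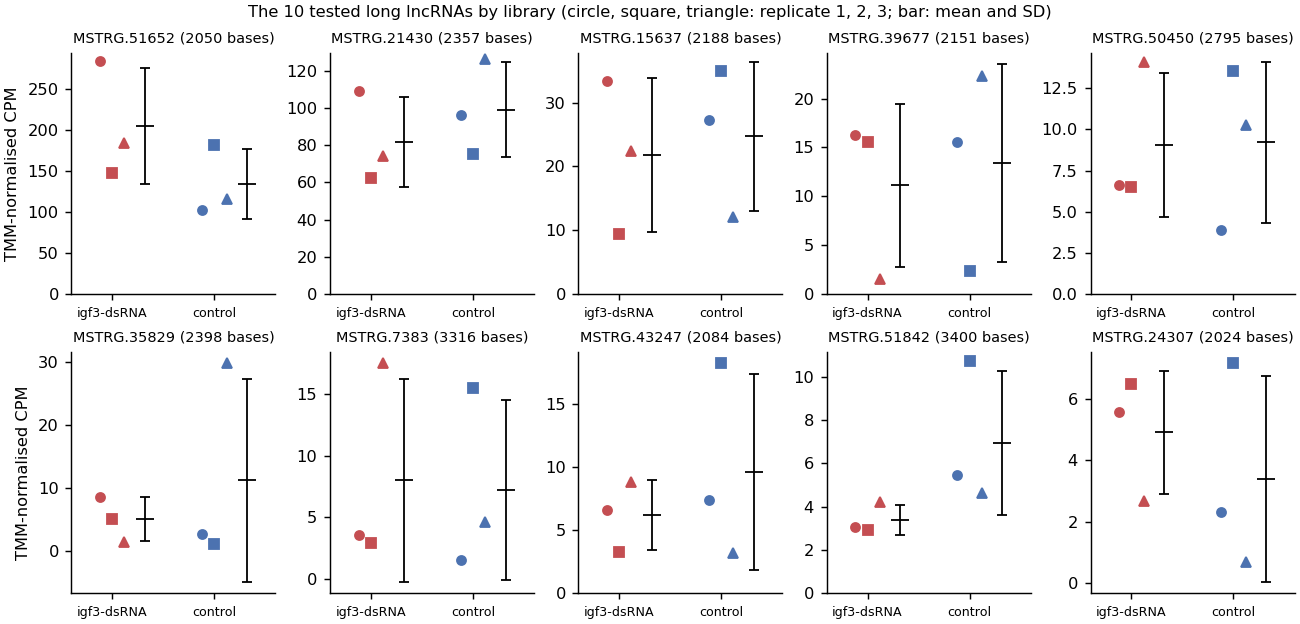
TMM-normalised CPM (y axis, each panel with its own scale) of the 10 tested long lncRNAs in the igf3-dsRNA libraries (red) and the control libraries (blue), with the mean and SD of each group in black. The groups overlap in every panel except that of MSTRG.51842, where igf3-dsRNA 3 at 4.20 lies just below control 3 at 4.61.

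An absolute log2 fold change over 1 was fitted for 2 of the 10, MSTRG.51842 and MSTRG.35829, and for 12.3% of all features tested. MSTRG.35829 (2398 bases) was carried by a single library. It had 17, 16 and 4 counts in the igf3-dsRNA libraries, against 7, 3 and 84 in the control libraries, and control 3 held 64.1% of its counts. The log2 fold change of -1.15 (standard error 1.14, adjusted p = 1.00 from edgeR) was 1.34 without control 3. Of the 18 long lncRNAs with 20 or more counts, MSTRG.35829, MSTRG.39728 and MSTRG.40600 were the 3 in which 1 library held over 50% of the counts.

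Several other members differed more between libraries of a group than between the groups. MSTRG.7383 (3316 bases) had 7, 9 and 46 counts in the igf3-dsRNA libraries, against 4, 39 and 13 in the control libraries. Its normalised CPM averaged 8.01 ± 8.27 in the igf3-dsRNA group and 7.23 ± 7.34 in the control group (SD, n = 3 each), so the SD was as large as the mean in both. MSTRG.39677 had the opposite profile, with 32, 48 and 4 counts in the igf3-dsRNA libraries, against 40, 6 and 63 in the control libraries. It was lowest where MSTRG.7383 was highest, in igf3-dsRNA 3 and control 2. MSTRG.43247 (2084 bases) had 13, 10 and 23 counts in the igf3-dsRNA libraries, against 19, 46 and 9 in the control libraries. The log2 fold changes were 0.15 for MSTRG.7383, -0.28 for MSTRG.39677 and -0.63 for MSTRG.43247, with standard errors of 0.99, 0.97 and 0.79, and each changed sign when a library was left out.

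The least variable of the tested members were MSTRG.21430, MSTRG.51652 and MSTRG.50450. The coefficient of variation of normalised CPM over all 6 libraries was 26.9% for MSTRG.21430, 38.6% for MSTRG.51652 and 45.4% for MSTRG.50450, where counting alone would give 6.63, 4.91 and 20.6%. At the other extreme it was 134% for MSTRG.35829, 92.0% for MSTRG.7383 and 70.3% for MSTRG.43247, against 21.6, 22.6 and 22.5% from counting alone. The counting error was thus the smaller part of the variation in each of these 6. The median over the 10 was 59.4% at a median level of 8.66 CPM, and that of all 2047 lncRNAs tested was 46.2% at 35.8 CPM. MSTRG.21430, the steadiest, had a log2 fold change of -0.28 with a 95% interval of -1.18 to 0.63, which leaves room for a fall past the threshold of 1 but not for a rise of that size. For MSTRG.50450 the log2 fold change was -0.02 with an interval of -1.61 to 1.56.

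The remaining members tested were MSTRG.15637 and MSTRG.24307. MSTRG.15637 averaged 21.8 ± 12.1 normalised CPM in the igf3-dsRNA group and 24.8 ± 11.7 in the control group (SD, n = 3 each), a log2 fold change of -0.19 (standard error 0.65). MSTRG.24307 (2024 bases) had 11, 20 and 7 counts in the igf3-dsRNA libraries, against 6, 18 and 2 in the control libraries. The groups overlapped and the log2 fold change was 0.53 (standard error 0.89), with 0.06 without control 3 and 1.66 without control 2.

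**Figure D5:**
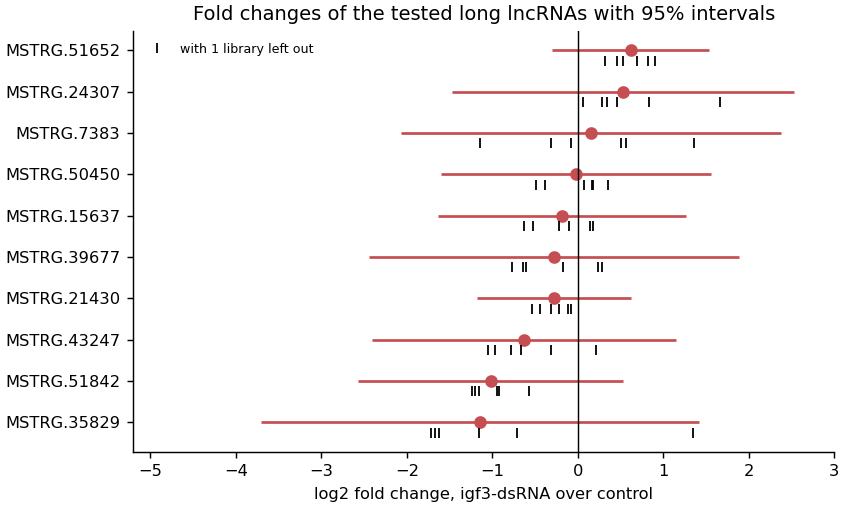
Log2 fold change of igf3-dsRNA over control (x axis) for the 10 tested long lncRNAs, with 95% intervals as red lines and the values with each library left out in turn as black ticks. Every interval includes 0, and the intervals span from 1.81 log2 units for the narrowest, that of MSTRG.21430, to 5.13 for that of MSTRG.35829.

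Among the 100 long lncRNAs that were not tested, 8 had 20 or more counts, and 3 of these are given here because they had the most counts, a choice made after their values were seen. MSTRG.27179 (2233 bases) had 14, 16 and 6 counts in the igf3-dsRNA libraries, against 9, 10 and 6 in the control libraries. For MSTRG.1309 (2101 bases) the counts were 8, 12 and 16 in the igf3-dsRNA libraries, against 6, 6 and 4 in the control libraries, without overlap. MSTRG.31037 (2326 bases) had 9, 10 and 3 counts in the igf3-dsRNA libraries, against 11, 4 and 4 in the control libraries. MSTRG.39728, just above the length limit, had 17, 7 and 3 counts in the igf3-dsRNA libraries, against 4, 0 and 1 in the control libraries. When all features with a count were fitted, the log2 fold change was 1.22 for MSTRG.1309 (standard error 1.09) and 2.52 for MSTRG.39728 (standard error 1.28), each with an adjusted p of 0.733 in edgeR's quasi-likelihood test. In that fit MSTRG.1309 was without overlap and MSTRG.39728 passed the unadjusted threshold, so these fold changes were picked through the comparison itself. Those of MSTRG.27179 and MSTRG.31037 are not given. None of the 110 long lncRNAs was among the 20 lncRNAs that the study checked by qRT-PCR (0 of 20).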

How the data were processed

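Total RNA of gonads was depleted of ribosomal RNA and sequenced as paired ends. Per the labels, reads were aligned with HISAT2 and assembled with StringTie 1.3.3b. The authors deposited unnormalized counts per feature (library totals are given above) and RPKM values scaled to clean reads; read pairs on no feature (91.4 to 92.6% of the pairs on 1, several or no feature) were left out. Length was derived from count, RPKM and the study's clean read numbers, and came out whole to within 4.27e-08 bases. No per-sample columns were left unused (0).

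Features passing filterByExpr were compared with edgeR 4.0.16 (R 4.3.3, TMM, quasi-likelihood test, Benjamini-Hochberg over all features). Standard errors derive from the F statistic. Named are the 3 longest members, the 6 most abundant, tested members by p in each direction and by coefficient of variation, and those at the length limit; any other member named was chosen after its values were seen. Members, lists and tests were chosen with earlier results of these data known. Alternatives were other normalisations, filters and tests (limma 3.58.1 on RPKM, DESeq2 1.42.0), a replicate block, left-out libraries and other length limits. The code was tested on simulated data.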

Additional observations from a re-analysis of the deposited data

How the results depend on the processing

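The number of long lncRNAs past the adjusted threshold was 0 in all 22 alternatives. Some of these could only repeat the main result, at an adjusted or an unadjusted p. Keeping the 100 most abundant lncRNAs left the same 110 members, and the limit of 2500 bases took a part of the members from the same fit. The stricter filters on counts or RPKM left fewer members to test. Without a filter on low counts, 112 of all 38402 features passed the adjusted threshold. At an unadjusted p the number of long lncRNAs was 0 in 20 alternatives. Without a filter on low counts it was 3 of 110 (MSTRG.31040, MSTRG.39728 and MSTRG.45081), against 2.55% of all features fitted. MSTRG.31040 had 8 counts, all in igf3-dsRNA 2. MSTRG.45081 had 1, 0 and 9 counts in the igf3-dsRNA libraries and no count in the control libraries. At 1500 bases or more the number was 1, against 2.65% of all features tested. With the replicate block it was 0. The same-numbered libraries correlated by 0.014, 0.00048 and 0.105 in their deviations from the group means, against -0.090 to 0.071 for libraries of differing number. With 3 libraries per group, these values cannot decide whether the numbers pair the libraries. The number without overlap was 5 of 110 without a filter, against 4.09% of all features. It was 0 with at least 10 counts in every library, and 1 to 3 with a library left out, 3 being without control 2. For these fits no share over all features is given. A group of 2 libraries also separates from the other group more readily than a group of 3, so these numbers say nothing particular about the members. The median log2 fold change, over the members fitted in each alternative, was -0.59 to 0.22 with a library left out, and 0.22 was without control 2. It was also above 0 without control 3, without igf3-dsRNA 2, without a filter on counts (0.066) and with limma without a filter (0.00024). The class held 46 lncRNAs at 2500 bases or more and 291 at 1500 or more. Its share of counts was 0.00354% in igf3-dsRNA and 0.00339% in control libraries at 2500 bases or more, 0.121% and 0.124% at 1500 or more, and 0.0121% and 0.0120% without the most abundant pair, an alternative added after seeing the data.

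Of 172 alternative fold changes of the 10 tested members, 19 had the other sign. MSTRG.50450 was at 0.18 with library sizes alone, 0.0091 with limma on log2(RPKM + 1) without a filter, 0.035 without a filter on counts, 0.042 with the replicate block and 0.00029 with upper-quartile factors, and MSTRG.35829 at 0.15 with the block. With a library left out, the ranges were -0.63 to 0.18 for MSTRG.15637, -0.77 to 0.29 for MSTRG.39677, -0.49 to 0.35 for MSTRG.50450, -1.72 to 1.34 for MSTRG.35829, -1.15 to 1.36 for MSTRG.7383, 0.06 to 1.66 for MSTRG.24307 and -1.05 to 0.22 for MSTRG.43247. The causes were not tested. The lowest adjusted p of any member was 0.733. The filter on counts kept 100 of the 110 out of the test, and the reason for their low counts was not tested. With limma, the pseudocount understates changes of low features. Leaving out a library leaves a group with 2.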

Other observations

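MSTRG.50450, MSTRG.7383 and MSTRG.43247 had their 2 highest normalised levels in igf3-dsRNA 3 and control 2, and MSTRG.39677 and MSTRG.35829 had their 2 lowest in the same libraries, 1 from each group. Over all 5843 features tested, this pair of libraries was the highest for 7.63% and the lowest for 6.32%, where the 15 possible pairs ranged from 4.96 to 10.2% as the highest and from 4.48 to 11.5% as the lowest. The pair of igf3-dsRNA 1 and control 3 was the highest for 3 of the 10 tested members too, and over all features for 6.95%. Other pairs were also the lowest for 2 of the 10 each, namely igf3-dsRNA 2 with control 1, igf3-dsRNA 2 with control 3, and control 1 with control 3. The pattern was noticed after the values were seen and was not tested.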
